A study of Homo sapiens with 72 samples.

Results

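These 100 long non-coding RNA (lncRNA) genes had less RNA after 24 h of TGF-β than after 24 h of its receptor inhibitor in Ras-transformed MCF10A-M2 cells, and a small difference in MCF10A-M1 and MDA-MB-231 cells. They were chosen by that 24 h difference itself, out of 96411 lncRNA genes in the table and 13631 that passed a filter on low values in all 3 lines. For each gene and line, D is the mean of log2(TPM + 0.5) at 24 h of TGF-β minus that at 24 h of SB431542, less the median of this difference over the genes tested in the line. A gene was selected on a D of at most -0.8 in MCF10A-M2 with every TGF-β library below every SB431542 library, and a D within 0.3 of 0 in both other lines. There were 1133 genes that met the MCF10A-M2 condition, 185 that met all conditions, and the 100 with the most negative D in MCF10A-M2 were kept and ranked by it. All 100 passed the filter in every line because the rule asks for it.

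TGF-β is a secreted cytokine that binds a pair of transmembrane kinase receptors, which phosphorylate SMAD proteins that then enter the nucleus and change transcription. SB431542 blocks the kinase of the type I receptor, and so also the signal of TGF-β that the cells make themselves. In epithelial cells TGF-β halts growth and can drive an epithelial-mesenchymal transition, and active Ras is known to alter how such cells answer it. LncRNAs are transcripts that are not translated into protein, and some act on chromatin, splicing or other RNAs.

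Total RNA was sequenced from 3 human breast cell lines, each with 24 libraries in 8 groups of 3 replicates that the design text calls biological. MCF10A-M1 (M1) is labelled as the normal breast epithelial line MCF10A, MCF10A-M2 (M2) is MCF10A transformed with HA-Ras and labelled pre-malignant, and the breast cancer line MDA-MB-231 is labelled triple negative. Cells of every group were kept overnight without serum and then received TGF-β at 5 ng/mL or SB431542 (SB) at 10 µM, and were taken at 0, 2, 8 and 24 h. The 0 h samples of the TGF-β arm are labelled as not stimulated, whereas the matching SB samples are titled 0 h but labelled with 0.5 h of treatment, so they are called the earliest SB samples here. Ligand buffer and DMSO are named as the vehicles of the agents, and no group of 2, 8 or 24 h is labelled as vehicle alone, so TGF-β is compared with receptor inhibition and not with untreated cells of the same age. M2 is 1 transformed line, so the Ras transgene and any other property of that line cannot be told apart. If replicates were not separate cultures, a p-value covers just the spread among them, which may be technical.

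The values are TPM, transcript abundances that sum to a fixed total over the lncRNA genes alone, so that a change in a few abundant genes moves all others. The 10 most abundant genes held between 56.7% and 78.8% of the total of a library. In M2 this share was 74.8% to 76.5% at 24 h of TGF-β, 69.0% to 75.1% at 24 h of SB and 63.3% to 69.7% in the unstimulated samples. The number of genes at 0.5 TPM or more was 8458 to 10138 at 24 h of TGF-β in M2 and 12533 to 14232 in its unstimulated samples. The table carries NONCODE identifiers without symbols and no protein-coding genes, so epithelial, mesenchymal and Ras markers could not be checked against the labels. In these bulk samples fewer cells with a transcript and less of it per cell cannot be told apart.

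At 24 h the members stood low in M2 under TGF-β, and the values of this paragraph chose them, so they are given without a test. The D of M2 ran from -2.27 at rank 1 over a median of -1.09 to -0.93 at rank 100, and the next gene, just outside, had -0.92. The last of the 185 genes had -0.80. The median member had 5.05 TPM at 24 h of TGF-β, 14.5 TPM at 24 h of SB and 17.4 TPM in unstimulated M2. Summed over the members, the level was 1506 ± 98.5 TPM (SD, n = 3) at 24 h of TGF-β and 3498 ± 349 TPM (SD, n = 3) at 24 h of SB. The 3 libraries of the former, from 1392 to 1571 TPM, lay below those of the latter, from 3104 to 3770 TPM.

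**Figure D1:**
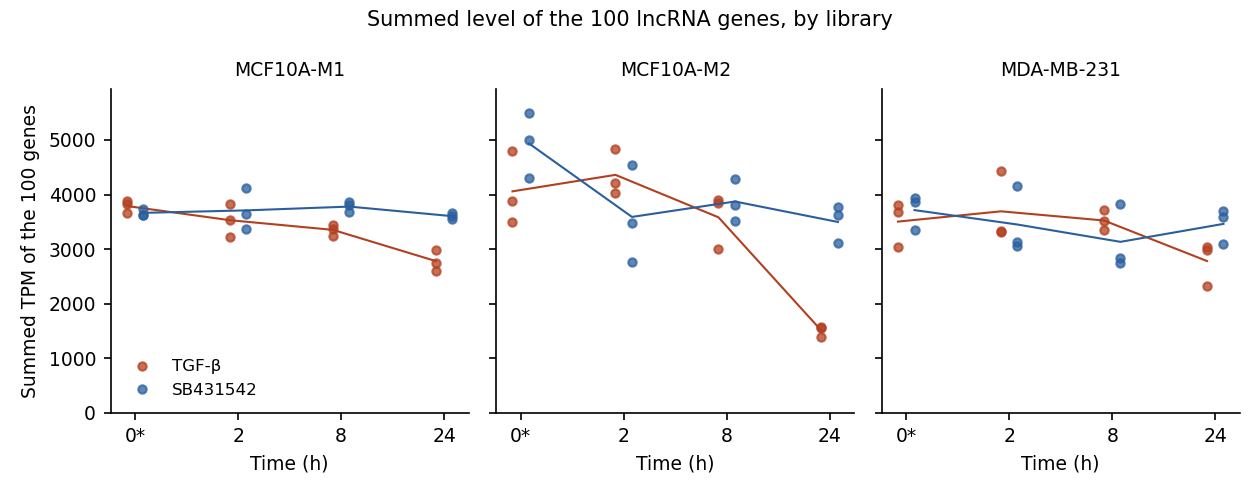
Summed TPM of the 100 genes (y axis) in each library (points) at each time in hours (x axis) for TGF-β (red) and SB431542 (blue) in the 3 lines, with lines joining the means of 3 replicates; 0* marks unstimulated samples for TGF-β and the earliest samples for SB431542. In MCF10A-M2 the 24 h TGF-β libraries (1392 to 1571) sit below all other libraries of any line.

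The same sums were not level in the other lines. In M1 they were 2780 ± 191 TPM (SD, n = 3) at 24 h of TGF-β and 3604 ± 52.9 TPM (SD, n = 3) at 24 h of SB, and the libraries did not overlap. In MDA-MB-231 they were 2782 ± 401 TPM (SD, n = 3) and 3463 ± 328 TPM (SD, n = 3), again without overlap (2319 to 3035 against 3089 to 3706 TPM). The median of the uncentred 24 h difference over all genes tested was -0.21 for M1, -0.09 for M2 and for MDA-MB-231 -0.33, and D removes it. The rule allowed a lean within its limits, and M1 used it: D was below 0 for 82 members in M1 with a median of -0.14, and at or under -0.2 for 31. In MDA-MB-231 it was below 0 for 57 members with a median of -0.06, and at or under -0.2 for 23. Of the 1133 genes that were low in M2, 758 had a D of -0.3 or lower in M1 and 343 in MDA-MB-231, so most genes low in M2 were low in M1 as well, and the 100 are a minority cut from them.

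The gap at 24 h arose in more than 1 way over time in M2. The change from the unstimulated samples to 24 h of TGF-β, and that from the earliest to the 24 h SB samples, share no library. Both end in the 24 h libraries that chose the members, so no test is given. The rule sets no order on the starting samples, so the order of the changes can differ from that of the 24 h levels. In 1 member the change relative to all genes was -0.29 under TGF-β and -0.48 under SB. Over all genes tested in M2, the median change was -0.74 under TGF-β and -0.63 under SB, and the member changes below are given relative to those medians. Under TGF-β the median member was at -0.85 relative to all genes, and 69 members were at -0.4 or lower, against 30.1% of all genes. Under SB the median member was at 0.17, and 37 members were at 0.4 or higher, against 24.7% of all genes. By agent, 60 members were lower under TGF-β and not higher under SB (24 of them lower under SB too). A further 9 were lower under TGF-β and higher under SB. There were 28 higher under SB without being lower under TGF-β (5 of them higher under TGF-β too), and 3 were neither. The shares of all genes with these joint patterns were not computed on any scale, so the split cannot be called particular to the members.

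This split depends on the scale. As deposited, without centring, 92 members were lower by at least 0.4 at 24 h of TGF-β (68.2% of all genes), and 7 were higher by that much under SB without being lower under TGF-β. After median-of-ratios scaling, which levels libraries by the genes above 0 in all of them, these counts were 57 (37.0% of all genes) and 39. The median change of all genes tested was then -0.15 under TGF-β and -0.11 under SB. On each of these scales the gap lay in some members between the start and 24 h of TGF-β, and in others between the start and 24 h of SB. The same courses in the other lines had centred medians of -0.14 under TGF-β and -0.03 under SB in M1, and -0.09 and -0.04 in MDA-MB-231. These courses also end in 24 h libraries that the rule used, where it required a small difference between the arms. The contrast with M2 is therefore partly set by the rule and is no independent result.

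**Figure D2:**
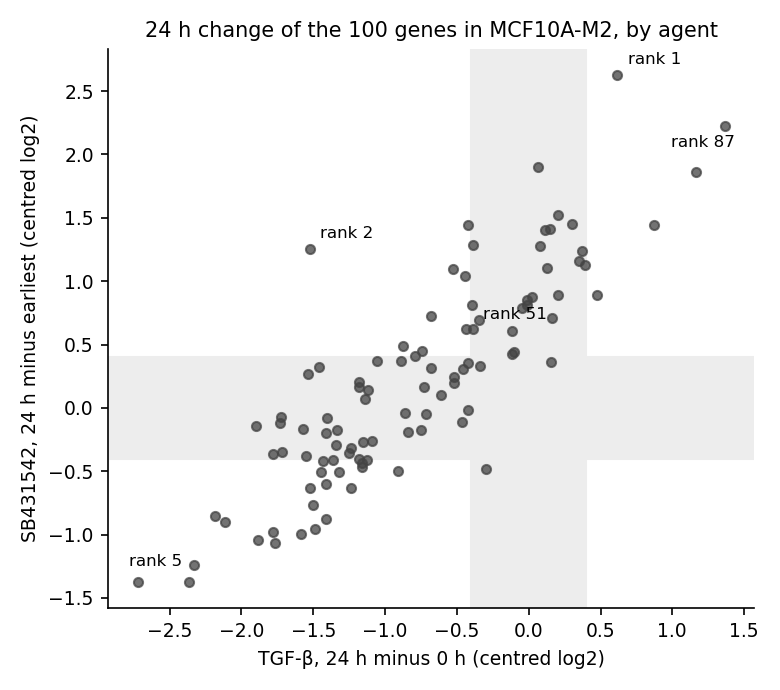
Centred log2 change of each of the 100 genes (points) in MCF10A-M2 from 0 h to 24 h of TGF-β (x axis) and from the earliest to the 24 h samples of SB431542 (y axis), with grey bands within 0.4 of 0. Genes run from lower under both agents (24 genes, lower left) to higher under SB431542 with little change under TGF-β (23 genes, top centre). The 24 h libraries on both axes chose the genes, so the shape of the cloud is no independent result.

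The member at rank 1, NONHSAG013228.2, had its gap through the SB arm. In M2 it was at 16.9, 17.5 and 25.6 TPM in the unstimulated libraries and at 17.8, 18.2 and 17.8 TPM at 24 h of TGF-β. At 24 h of SB it was at 98.4, 94.9 and 89.8 TPM, above all other libraries of the series for this gene. In M1 and MDA-MB-231 the 24 h SB libraries had 1.01 to 3.11 TPM and 1.07 to 3.15 TPM. This level under inhibition was thus seen in M2 alone among the 3 lines. The means at 24 h of TGF-β in M1 and MDA-MB-231 were 1.475 and 1.305 TPM, against 2.136 and 2.323 TPM under SB. At such levels the pseudocount shrinks the difference that the rule limited to 0.3. Its 8 h difference in M2, -0.43 ± 0.21 (log2, SE), missed the threshold as deposited (limma adjusted p = 0.236) and passed it after rescaling at -0.68 ± 0.16 (limma adjusted p = 0.00873). In MDA-MB-231 its 8 h difference was -1.08 ± 0.30 and missed the threshold (limma adjusted p = 0.102), with 2.74 to 3.35 TPM under TGF-β and 5.25 to 8.45 TPM under SB, without overlap.

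The member at rank 2, NONHSAG006129.2, stood at either of a pair of levels in single libraries. In M2 it was at 17.0, 15.1 and 25.6 TPM unstimulated, 3.50, 3.29 and 3.71 TPM at 24 h of TGF-β, and 13.9, 17.6 and 17.3 TPM at 24 h of SB. Yet 10 of the 24 M2 libraries were under 10 TPM, between 1.79 and 8.80 TPM, and the others were between 13.4 and 25.6 TPM. The low level also occurred in 8 of the 24 M1 libraries (3.24 to 7.68 TPM) and in 1 of the 24 MDA-MB-231 libraries (3.24 TPM). Replicates of 4 of the 8 M2 groups, 6 of the 8 M1 groups and 1 of the 8 MDA-MB-231 groups fell on both sides of 10 TPM, so its place at rank 2 rests on libraries of a gene that splits within groups. Its 8 h difference in M2 was -0.86 ± 0.72 (limma adjusted p = 0.53). Such spread was uncommon among the members: the widest range within any M2 group was 2 or more on the log2 scale for 11 of the 100 and had a median of 1.01.

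The pair with the largest centred increase under SB, leaving out rank 1, was NONHSAG093126.1 at rank 87 and NONHSAG065389.1 at rank 37. NONHSAG093126.1 was at 72.2, 84.9 and 92.8 TPM in the earliest SB samples, 135.3, 127.9 and 133.2 TPM at 8 h and 250.5, 258.7 and 243.8 TPM at 24 h. Under TGF-β it was at 84.0, 70.6 and 82.8 TPM at the start and 124.8, 117.0 and 123.3 TPM at 24 h, so that it was higher at 24 h in both arms and is low beside SB and not beside its start. Its rise over 8 h of SB, 0.67 ± 0.17 (log2, SE), passed the test (limma adjusted p = 0.0408). NONHSAG065389.1 was near the filter, with 1.56, 2.17 and 2.40 TPM at 24 h of SB and 0.396, 0.240 and 1.21 TPM at 24 h of TGF-β, and these libraries do not overlap but differ by about 1 TPM.

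**Figure D3:**
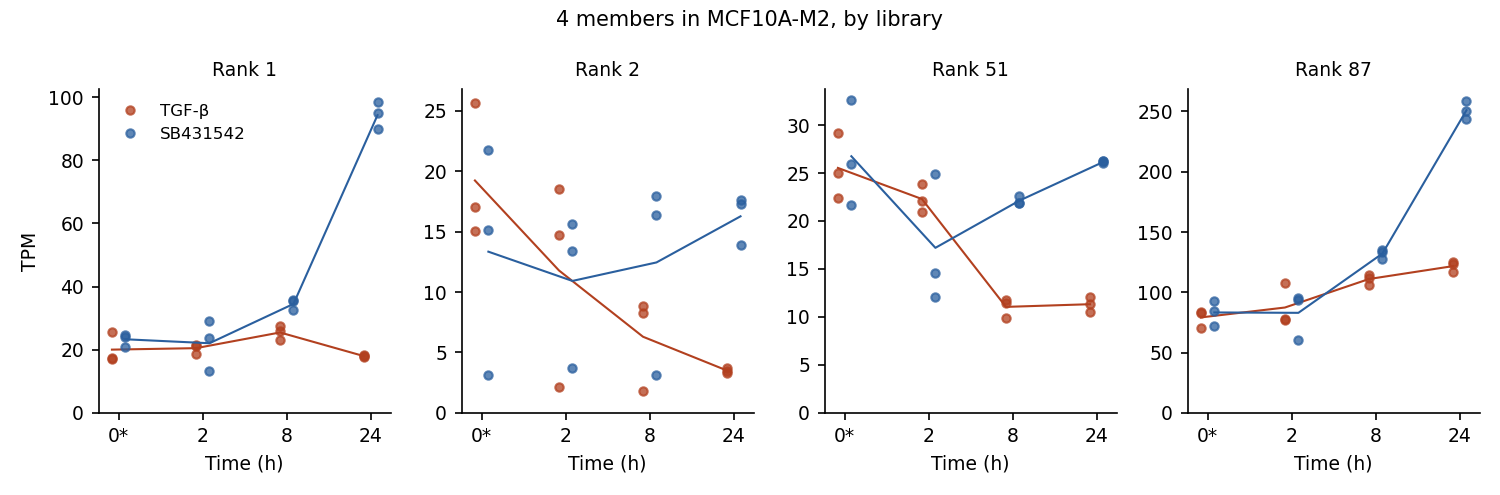
TPM (y axis) in each MCF10A-M2 library (points) at each time in hours (x axis) for TGF-β (red) and SB431542 (blue), with lines joining the means of 3 replicates, for the members at ranks 1, 2, 51 and 87; 0* marks unstimulated or earliest samples. The gap at 24 h comes with higher SB431542 values at ranks 1 and 87, with replicates split between levels at rank 2, and is already present at 8 h at rank 51.

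The 8 h samples were not used to choose the members and test whether they were already lower in M2. As deposited, 2 of 100 members were lower with TGF-β than with SB at 8 h (limma, adjusted p under 0.05 over 16958 genes) and 0 were higher, where 0.885% of all genes were called lower and 6.04% higher. The median gene was 0.23 higher with TGF-β on this scale, and the median member was at -0.17, so relative to all genes it was at -0.40. There were 87 members below the median of all genes. After median-of-ratios scaling the median gene was at 0.07, the median member at -0.41, and 31 members were called lower against 4.76% of all genes, with 0 called higher against 6.4%. The count thus turned on the scale while the position of the members relative to all genes did not.

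Without the first SB replicate of 8 h the rescaled count was 14, without the second TGF-β replicate 18 and without the third one 19. Without that library the count as deposited was 1. In 28 members all 3 TGF-β libraries were below all 3 SB libraries at 8 h as deposited, against 6.43% of all genes. The mean of log2(TPM + 0.5) of the members less that of all genes tested was 1.71 to 1.79 in the TGF-β libraries and 2.07 to 2.22 in the SB libraries. The members are more abundant than most genes, and among genes of at least 10 TPM in M2 the median 8 h difference was 0.05, against -0.19 for the 57 members of that level, 48 of which were below that median.

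The members at ranks 51 and 93 were called lower at 8 h in M2 on both scales, and like other members given by rank they are described because they passed a test, so they were chosen after their values were seen. Rank 51 was at 9.89, 11.8 and 11.5 TPM at 8 h of TGF-β and at 21.9, 22.6 and 21.9 TPM at 8 h of SB, a difference of -0.97 ± 0.21 (limma adjusted p = 0.00501). At 24 h it was at 11.3, 10.6 and 12.1 TPM and at 26.2, 26.2 and 26.1 TPM, so that the level at 8 h of TGF-β was that of 24 h. Rank 93 was at 2.95, 2.17 and 1.54 TPM and at 6.17, 6.82 and 6.05 TPM at 8 h, a difference of -1.36 ± 0.30 (limma adjusted p = 0.00612). At the start both overlapped the SB arm, at 22.4 to 29.2 TPM and 4.61 to 8.43 TPM in the unstimulated libraries. The 31 genes called after rescaling were spread over both 24 h patterns: 22 of the 60 that were lower under TGF-β and not higher under SB, 7 of the 28 that were higher under SB and not lower under TGF-β, 1 of the 9 that were lower under TGF-β and higher under SB, and 1 of the remaining 3. Across the 100 members the 24 h D and the centred 8 h difference in M2 had a Pearson r of 0.17 and a Spearman rho of 0.21, as a description over genes that share libraries.

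The members also lay below the median gene at 8 h in M1, where their 24 h difference had been required to be small. As deposited, 5 were lower with TGF-β than with SB in M1 and 0 higher, against 2.89% of all genes called lower and 5.41% higher. After rescaling 10 were lower and 0 higher, against 4.13% and 5.25%. A setting added after the data were seen took the 10 most abundant genes out of the total used for scaling (the trimmed total), and gave a count of 28, against 5.85% of all genes. The median member was at -0.20 as deposited and the median gene at 0.04, with 81 members below it. Among genes of at least 10 TPM in M1, 50 of 56 members were below the median of that level. Leaving out any 1 of the 6 libraries lowered the count as deposited to 2 or 3, and the rescaled count was 4 without the third SB replicate, 5 without the first SB or the second TGF-β replicate and 6 without the third TGF-β replicate.

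In MDA-MB-231 the members lay above the median gene at 8 h. As deposited, 0 members were called lower and 0 higher at 8 h by limma, where 0.266% of all genes were called lower and 0.671% higher. At an unadjusted p under 0.05, 4 members were lower and 4 higher, where 4.42% and 3.68% of all genes were. After rescaling 0 were called lower (0.773% of all genes) and 2 higher (1.29%), at ranks 5 and 69. The median member was at 0.12 and the median gene at -0.06, and 26 members were below the latter. Of the 100 members, 78 were below the median of all genes at 8 h in both M2 and M1, and 16 in all 3 lines. There were 6 below it in M2 and above it in both others. All 3 TGF-β libraries of 8 h lay below all 3 SB libraries in 32 members in M1 (10.0% of all genes). In MDA-MB-231 they did in 10 members (7.06%), so this order was not particular to M2, with its 28. The reverse order held in 2 members in M1 (15.5%) and 10 in MDA-MB-231 (5.79%).

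The difference between lines was tested at 8 h as an interaction, which asks whether the TGF-β minus SB difference itself differs. Against M1, 1 member had a lower response in M2 as deposited and 3 after rescaling, against 0.261% and 0.682% of all genes. As deposited the median member was at 0.06 and the median gene at 0.15, with 67 members below the latter and 38 below 0. After rescaling these medians were -0.13 and 0.05, with 78 members below the median gene. Against MDA-MB-231, 1 member had a lower response in M2 as deposited and 25 after rescaling, against 0.45% and 2.29%. There the median member was at -0.29 as deposited and the median gene at 0.25, with 84 members below the latter. Without the second TGF-β replicate of M2, or without any of 7 others of the 12 libraries, the count as deposited against MDA-MB-231 was 0. The rescaled count against M1 was 2 or 3, and that against MDA-MB-231 was 17 to 26, when single libraries were left out.

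The member called against M1 as deposited was rank 51, with an interaction of -1.06 ± 0.23 (limma adjusted p = 0.0142). In M1 it was at 38.5, 39.2 and 40.9 TPM at 8 h of TGF-β and at 35.7, 38.9 and 37.2 TPM at 8 h of SB, overlapping groups at a level above that of M2. In MDA-MB-231 it was at 10.1, 9.78 and 10.4 TPM and at 11.1, 12.6 and 15.9 TPM. Ranks 7 and 53 joined it after rescaling. Rank 7 in M2 was at 31.0, 33.9 and 30.6 TPM at 8 h of TGF-β and at 53.2, 49.7 and 43.3 TPM at 8 h of SB, and the groups do not overlap. The member called against MDA-MB-231 as deposited was rank 93, at -1.45 ± 0.38 (limma adjusted p = 0.0268). It was at 3.92, 3.12 and 3.00 TPM and at 3.87, 2.65 and 2.89 TPM in MDA-MB-231. On the trimmed total 0 members passed the interaction test against either line, and the smallest limma adjusted p of a member against M1 was 0.188.

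**Figure D4:**
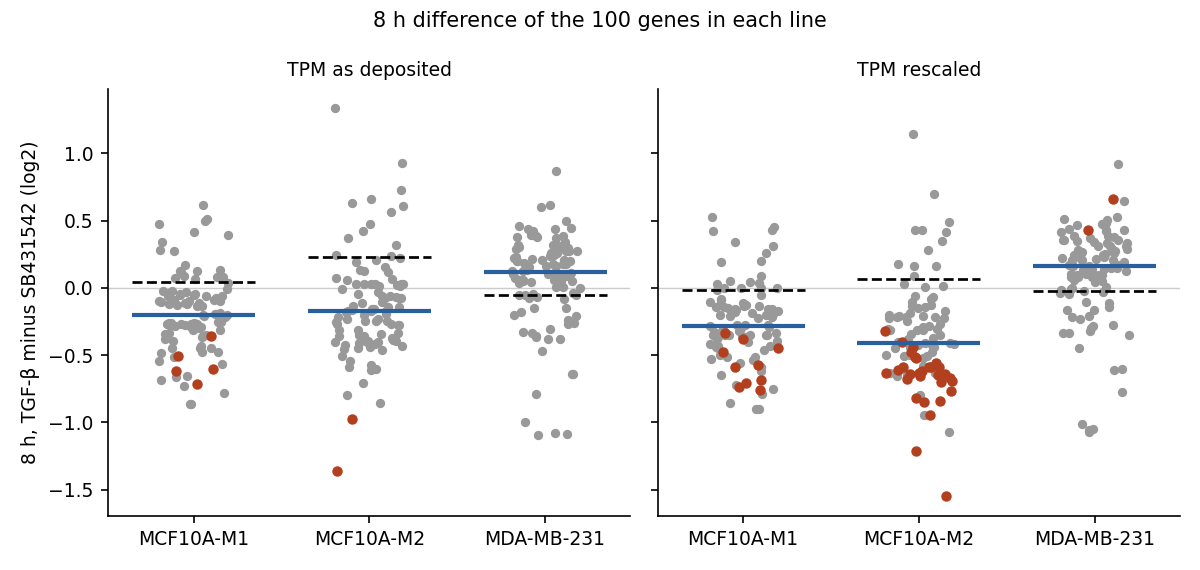
Log2 difference between 8 h of TGF-β and 8 h of SB431542 (y axis) for each of the 100 genes (points) in the 3 lines, with TPM as deposited (left) and after median-of-ratios scaling (right); red points passed limma at an adjusted p under 0.05, blue bars are the median of the 100 genes and dashed bars that of all genes tested. The blue bar lies below the dashed bar in MCF10A-M1 and MCF10A-M2 and above it in MDA-MB-231, on both scales.

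At 2 h few members passed the test in M2, and where they stood relative to all genes turned with the scale. As deposited, 0 were called lower with TGF-β than with SB (0.106% of all genes), also 0 at an unadjusted p under 0.05 (1.31% of all genes), and 2 higher (4.03% of all genes), and after rescaling 1 was lower (0.525%) and the same number, 2, higher (1.83%). As deposited the median member was at 0.26 and the median gene at 0.27, with 50 members below the latter. After rescaling they were at -0.13 and 0.00, with 74 members below. As deposited, 43 of the 57 members of 10 TPM or more and 27 of the 39 of 1 to 10 TPM were below the median gene of their level. The members called higher were ranks 26 and 45. That count was 0 with the compared groups alone, on the trimmed total or without SB replicate 3 of 2 h. It was 1 without SB replicate 2, TGF-β replicate 1 or TGF-β replicate 3, and 20 without SB replicate 1. SB replicate 1 had 13996 genes at 0.5 TPM or more, against 10705 and 10335 in the other SB libraries of 2 h. No share of all genes called is at hand for fits that leave out a library. The count of 20 therefore cannot be called particular to the members. Rank 26 was at 14.6, 13.8 and 15.1 TPM at 2 h of TGF-β and at 11.3, 4.17 and 4.89 TPM at 2 h of SB, and at 24 h it was at 0.652, 0.764 and 1.07 TPM and 3.20, 3.22 and 2.13 TPM. Its groups therefore stood in opposite order at these times. At the start, 0 members were lower in the unstimulated than in the earliest SB samples of M2 by limma on either scale, where 0.0% of all genes were called lower. At an unadjusted p under 0.05, 8 members were lower in the unstimulated samples as deposited (4.66% of all genes) and 9 after rescaling (4.1%), with 5 under the replicate block and 0 on the trimmed total. The median member was at -0.18 in that comparison and the median gene at -0.04, and among genes of at least 10 TPM the medians were -0.23 for members and -0.22 for all.

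Within the TGF-β arm of M2, 6 members fell over the 8 h from the unstimulated samples and 2 rose, against 2.21% and 2.65% of all genes. These comparisons share the 8 h libraries with those above. After rescaling 14 fell (3.57% of all genes) and 4 rose (5.25%). On the trimmed total 0 fell (0.578%) and 2 rose (2.18%), and without the second unstimulated replicate 3 fell and 2 rose as deposited. Rank 51 fell from 25.5 ± 3.43 TPM (SD, n = 3) to the 8 h values above, by 1.17 ± 0.21 on the log2 scale (limma adjusted p = 0.0011), and rank 21 fell by 1.14 ± 0.25 (limma adjusted p = 0.00771). Both members that rose as deposited reached a peak and returned. Rank 35 went from 5.21, 4.48 and 8.62 TPM to 18.8, 24.9 and 24.4 TPM at 8 h (log2 change 1.85 ± 0.23, limma adjusted p = 9.78e-06) and was at 7.52, 8.14 and 8.50 TPM at 24 h. Rank 97 went from 45.2 ± 8.99 TPM (SD, n = 3) to 114.1, 132.1 and 138.1 TPM at 8 h (1.51 ± 0.21, limma adjusted p = 3.91e-05) and was at 47.3, 48.7 and 50.0 TPM at 24 h. In the SB arm rank 35 was at 20.7, 22.0 and 18.5 TPM and rank 97 at 102.1, 101.4 and 94.4 TPM at 24 h, so for these members the 24 h gap is between a level near the start under TGF-β and a higher one under SB.

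Within the SB arm of M2, 2 members fell over 8 h and 2 rose as deposited, against 1.88% and 0.13% of all genes. After rescaling 0 fell (0.643%) and 7 rose (1.14%), and the median gene had moved by -0.33 as deposited and -0.04 after rescaling. Those that rose on both scales were NONHSAG093126.1, given above, and rank 97, which went from 47.0, 61.7 and 62.1 TPM to 122.8, 123.5 and 118.0 TPM (log2 change 1.10 ± 0.21, limma adjusted p = 0.00859) and thus rose over 8 h in both arms. Rank 35 and NONHSAG013228.2 passed the test after rescaling only, the latter at 0.98 on the log2 scale (limma adjusted p = 0.00183). The members that fell as deposited, ranks 69 and 77, did not pass the test after rescaling. With the compared groups fitted alone 5 members fell and 2 rose as deposited, against 3.43% and 0.154% of all genes, and on the trimmed total 0 passed in either direction. The count as deposited in either direction, 4, was 1 without the first or second 8 h replicate or the third of the earliest ones, and 2 without the first of the earliest.

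Before any TGF-β was added, the members lay above the median gene in the difference between M2 and M1. There were 20 members below it as deposited, 12 after rescaling, 21 on the trimmed total and 46 with no filter. Members had to pass the filter in each line, whereas all genes here passed it over the libraries of both lines together. Genes absent from M2 could thus be among all genes but not among the members, so this position is partly set by the rule. As deposited, 10 members were higher and 4 lower in unstimulated M2 than in unstimulated M1, against 2.12% and 17.1% of all genes, and the median gene was at -0.34 while the median member was at 0.01, with 49 members below 0. The rescaled values gave 41 higher members and 1 lower, where 6.25% and 7.23% of all genes were called. The 10 members called higher as deposited were all called so after rescaling. On the trimmed total 4 were higher (1.38%) and 1 lower (13.7%). The split as deposited turned on single libraries: without the third M2 replicate 4 were higher and 8 lower, without the second 9 and 1, without the first 5 and 3, and without any 1 M1 replicate 4 to 6 were higher and 2 or 3 lower. NONHSAG013228.2 was at 20.0 ± 4.87 TPM (SD, n = 3) in unstimulated M2, 4.78 ± 1.45 TPM (SD, n = 3) in M1 and 6.03 ± 0.551 TPM (SD, n = 3) in MDA-MB-231, and was higher in M2 than in M1 by 1.97 ± 0.28 on the log2 scale (limma adjusted p = 1.87e-06).

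Against MDA-MB-231 the order of the counts turned with the scale. As deposited 43 members were higher in unstimulated M2 and 10 lower, against 24.4% and 14.7% of all genes, and the rescaled values gave 32 higher and 18 lower members, where 20.2% and 20.0% of all genes were called. On the trimmed total 13 were higher and 18 lower, against 13.6% and 22.7%. As deposited, 28 were higher without the third MDA-MB-231 replicate, and 5 or 6 were lower without the first or second M2 or the second MDA-MB-231 replicate. No direction is drawn for the members as a group from this comparison.

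Abundance was common among the members, and the rule sets no level beyond its filter but may favour abundant genes. The median member, at 17.4 TPM in unstimulated M2, stood at the 82.3rd percentile of the 13631 genes, whose median was 2.27 TPM, and 61 members were at 10 TPM or more against 24.4% of all. The same held in the unstimulated samples of M1, where 58 members were at 10 TPM or more (28.6% of all genes), and of MDA-MB-231, with 51 (22.0%). At low TPM the pseudocount shrinks a log2 difference, which bears on which genes could pass the limit of -0.8. The most abundant member, at rank 69, had a mean of 763.3 TPM in unstimulated M2 and 516.5 TPM at 24 h of SB. Members at 100 TPM or more went from 8 at the start to 4 at 24 h of TGF-β and from 8 to 5 at 24 h of SB, and among all genes that share went from 4.04% to 2.63% and from 5.02% to 3.32%.

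Neighbouring identifier numbers were the other property on hand. Consecutive numbers occurred in 2 pairs of members, at ranks 8 and 28 and at ranks 9 and 61, and reads of such genes may be shared where they overlap. Rank 8 was at 40.4, 35.1 and 24.8 TPM at 24 h of SB and 14.2, 6.74 and 11.8 TPM at 24 h of TGF-β, and rank 28 at 38.5, 38.3 and 30.5 TPM and 13.4, 13.4 and 15.1 TPM, so the members of that pair had alike levels. Rank 9 was at 39.8, 39.9 and 28.8 TPM and 11.2, 10.6 and 12.8 TPM, and rank 61 at 1.80, 3.23 and 2.44 TPM and 0.945, 0.633 and 0.959 TPM, so the second pair differed in level. Of 49 tested genes whose number is next to a member's and which are no members, 4 had a D of -0.8 or lower in M2, which is 8.16%, against 8.96% of all 13631.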

How the data were processed

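RNA of 72 samples (3 lines, 24 groups, 3 replicates) was sequenced, and groups were taken from the sample labels. Per the submitters' processing notes, the tools were StringTie 1.3.6, HISAT2 2.2.0, cutadapt 2.10 and FastQC, on GRCh38. Their parameters, the annotation release and the strand setting are not given in the sources used, so reads of overlapping genes cannot be told apart. The authors deposited TPM values per lncRNA gene, scaled in each library over these genes alone. Depth cannot be read from TPM, and counting errors and detection limits are therefore unknown. The design text gives 36 as the number of samples, although the labels list 72.

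A gene entered a fit when 3 or more of its libraries had 0.5 TPM or more. Tests ran on log2(TPM + 0.5), where fold changes of low genes are understated, with limma 3.58.1 (eBayes with trend) in R 4.3.3 (with the data.table package, version 1.17.8), on 24 libraries within a line and 48 for comparisons between lines. Tests were two-sided, with Benjamini-Hochberg adjustment over all genes tested and calls at an adjusted p under 0.05. The fit was run on simulated data with residuals shuffled within each gene. Shifts shared by all genes of a library were thus absent, so this run says nothing on the dependence on scale. Descriptions used Python 3.11.15 with pandas 2.3.3, numpy 2.4.6 and matplotlib 3.10.9. The members and the settings were chosen with earlier results of these data known. The 24 h libraries of TGF-β and SB chose the members, so no contrast with them was tested. Identifiers were named by rule: the 2 members with the most negative D in MCF10A-M2 and the 2 with the largest centred increase over 24 h of SB431542 there, leaving out one already named. None of the identifiers matched the RefSeq or GENCODE tables used (0 matches), so symbols, positions and pathway or marker lists could not be used.

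Alternatives were median-of-ratios scaling ("rescaled"), pseudocounts of 0.1 and 1, a fit with no filter or with a mean TPM of 1 or more, a replicate block, fits of just the groups compared, and leaving out libraries singly. The total without the 10 most abundant genes (the trimmed total), and the block and single libraries left out on rescaled values, were added after seeing the data.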

Additional observations from a re-analysis of the deposited data

Results flagged for a closer look

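The TGF-β minus SB431542 difference at 8 h differed between lines, by a test of the interaction, for single members. The member at rank 51 had a response lower by 1.06 on the log2 scale in MCF10A-M2 than in MCF10A-M1 (interaction -1.06, limma adjusted p = 0.0142). It was the 1 member called as deposited, against 0.261% of all genes. After median-of-ratios scaling 3 members passed this test, against 0.682% of all genes. The member at rank 93 had a response lower in MCF10A-M2 than in MDA-MB-231 (interaction -1.45, limma adjusted p = 0.0268). It was the 1 member called as deposited, against 0.45% of all genes. After rescaling 25 members passed, against 2.29% of all genes. On the total trimmed of the 10 most abundant genes, 0 members passed against either line.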

How the results depend on the processing

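Of 283 alternative values for 20 results, 229 stayed the same. For a count this means within 1.5 times the reported value, and for the 8 h differences of the 4 named genes the same side of the threshold. A change of sign was scored for those 4 genes alone, with 0 found. Counts were not scored for a change of direction, and some did change order, as given above. Scaling moved the most counts. The shares of all genes called stand beside the rescaled counts in the Results, and the counts below are to be read against them. With median-of-ratios scaling, members called lower at 8 h were 31 in MCF10A-M2 and 10 in MCF10A-M1, 1 at 2 h, 3 and 25 by interaction against MCF10A-M1 and MDA-MB-231, and members called in either direction were 18 over 8 h of TGF-β, 7 over 8 h of SB431542 and 42 between unstimulated MCF10A-M2 and MCF10A-M1. On the trimmed total, without the 10 most abundant genes, 28 were called lower at 8 h in MCF10A-M1 (5.85% of all genes). In MDA-MB-231 1 was (0.393%). The other counts there were 0 and 0 by interaction, 2 over TGF-β and 0 over SB431542. Between unstimulated lines they were 5 against MCF10A-M1 and 31 against MDA-MB-231. The cause was not tested. With the compared groups alone, 4 were lower at 8 h in MCF10A-M2 (1.5% of all genes) and 7 differed over SB431542. In such a fit 8 differed between unstimulated MCF10A-M2 and MCF10A-M1. Of these 6 were higher (1.83% of all genes) and 2 lower (14.5%). The count over SB431542 was 2 without a filter and 7 at a mean of at least 1 TPM.

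Leaving out single libraries gave 1 to 2 members at 8 h in MCF10A-M2 (14 to 27 rescaled), 2 to 3 in MCF10A-M1 (4 to 10 rescaled), 0 to 1 by interaction against MDA-MB-231, 5 to 8 over TGF-β, 1 to 3 over SB431542 and 7 to 12 between unstimulated MCF10A-M2 and MCF10A-M1. Of the 100 members, 70 met the thresholds of the rule with a pseudocount of 1, 76 with 0.1, 69 after rescaling, and 78 to 99 without single libraries. Same-numbered MCF10A-M2 samples had correlations of their deviations between -0.14 and 0.14, so the numbers were not taken as pairs. With the replicate block the count over SB431542 was 2. Between unstimulated lines the block fit takes the difference at the first replicate, which is not the mean difference of the main fit. In that fit 1 member, in place of 4, was lower in unstimulated MCF10A-M2 than in MCF10A-M1, so these counts are not alike. The block moved no other count of called members, taken by direction, by over 1.5 times, with 2 lower at 8 h in MCF10A-M2 (30 rescaled). The tables hold no depth, so how far it limits low values is unknown.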
